A study of Mus musculus with 12 samples.

Results

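Reg3b, Reg3g, Reg4, Retnlb and Ang4 encode small proteins that the intestinal epithelium secretes toward the gut lumen. These 5 genes were chosen by name, with earlier readings of these arrays under DSS known, out of 19935 genes whose probe sets carry exactly 1 gene symbol. Each was read by 1 probe set. Because the choice drew on the DSS readings, comparisons that involve a DSS group are given as a description, and the comparison of genotypes on water is the one that the choice did not use.

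The arrays came from male mice aged 8 to 10 weeks, labelled as colon epithelial cells, in 4 groups of 3. Wild-type (WT) littermates and Villin-Claudin-2 transgenic (TG) mice received either drinking water or 4% (w/v) dextran sodium sulfate (DSS) for 10 days. Villin is an intestinal epithelial promoter, Claudin-2 is a pore-forming tight junction protein, and DSS injures the colonic epithelium and so causes colitis. The labels do not say whether each array is 1 animal, so the spread behind every p-value here may be partly technical. The deposited log2 values have a median of 0 over the 12 arrays for each probe set, so a value here is a relative signal, and neither absolute levels nor the presence of colonic markers could be read. In WT DSS, 677, 3795 and 1035 of 28815 probe sets lay over 1 log2 unit from their median in replicates 1, 2 and 3. In TG DSS these counts were 285, 53 and 90, and the 6 water arrays had 22 to 91.

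Reg proteins are C-type lectins. REG3B and REG3G bind bacterial cell surfaces, kill bacteria and help keep them away from the epithelium, and their genes are induced by microbial signals through MyD88 and by IL-22 through STAT3. REG4 marks secretory cells of the deep colonic crypt, RELMβ, the product of Retnlb, is a goblet cell protein induced by IL-4 and IL-13 and by bacterial colonisation, and ANG4 is a ribonuclease of Paneth and goblet cells with microbicidal activity.

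The 250 bases before the annotated start are shown for the members found in the promoter table (RefSeq, GRCm38.p6, 4 of 5 matched). Retnlb had no entry. The windows are shown because Reg3b and Reg3g varied together across arrays (Pearson's r = 0.952, and 0.718 without WT DSS replicates 1 and 3). Over the 12 arrays, Reg3b had an r of -0.885 with Reg4 and 0.534 with Ang4. Capitals mark matches to TTCNNNGAA, the STAT consensus, and to the TATA box TATAAA, which reads TTTATA on the opposite strand. Reg3b lies at chr6:78370635-78370884 on the plus strand, Reg3g at chr6:78468875-78469124 on the minus strand, Reg4 at chr3:98221906-98222155 on the plus strand and Ang4 at chr14:51773591-51773840 on the minus strand.
Reg3b: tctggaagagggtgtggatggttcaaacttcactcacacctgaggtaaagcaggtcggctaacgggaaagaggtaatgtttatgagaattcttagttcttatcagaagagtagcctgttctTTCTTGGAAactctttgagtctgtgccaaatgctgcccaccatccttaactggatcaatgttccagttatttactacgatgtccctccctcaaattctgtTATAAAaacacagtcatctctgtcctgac
Reg3g: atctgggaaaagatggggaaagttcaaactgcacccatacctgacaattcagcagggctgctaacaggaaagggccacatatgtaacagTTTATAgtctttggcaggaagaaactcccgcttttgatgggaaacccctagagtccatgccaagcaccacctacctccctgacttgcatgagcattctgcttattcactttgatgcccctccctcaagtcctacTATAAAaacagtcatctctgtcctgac
Reg4: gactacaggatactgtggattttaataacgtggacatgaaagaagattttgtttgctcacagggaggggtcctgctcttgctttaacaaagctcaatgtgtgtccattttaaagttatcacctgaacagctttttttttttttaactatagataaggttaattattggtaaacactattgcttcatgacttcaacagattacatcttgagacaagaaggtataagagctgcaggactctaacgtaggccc
Ang4: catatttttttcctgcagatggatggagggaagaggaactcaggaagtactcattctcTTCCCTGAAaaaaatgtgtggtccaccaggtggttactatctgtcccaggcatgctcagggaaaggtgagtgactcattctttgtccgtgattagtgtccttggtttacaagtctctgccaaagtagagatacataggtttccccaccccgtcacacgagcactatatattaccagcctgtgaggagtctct

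The Reg3b and Reg3g promoters were identical at 177 of 257 aligned columns (68.9%), against 47.1% to 49.8% for the other 5 pairs. Both held TATAAA close to the start, at bases -29 to -24 for Reg3b and -27 to -22 for Reg3g, and Reg3g held a further match on the opposite strand at bases -161 to -156. The STAT consensus matched at bases -129 to -121 of Reg3b (TTCTTGGAA) and -192 to -184 of Ang4 (TTCCCTGAA), and the Reg3g and Reg4 windows held no match to it. On both strands of the same window of 32851 promoters, the STAT consensus matched in 7.02% and TATAAA in 12.4%. The STAT6 form of the motif, TTC and GAA with 4 bases between, matched in 5.85% of promoters, and TTGCNNAA of C/EBP factors matched in 9.56%. Neither matched in the windows of Reg3b, Reg3g, Reg4 and Ang4, and the promoter of Retnlb was not searched. No member's match overlapped another motif. A match of letters is a description and shows no binding.

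In the colon of WT mice under DSS, the group means of both Reg3 lectins and of Retnlb were higher than on water, the mean of Reg4 was lower and Ang4 was close to its water mean. In TG mice the means of Reg3b, Reg3g and Retnlb were also higher under DSS than on water, by smaller amounts. No member passed an adjusted p of 0.05 over all genes (limma, Benjamini-Hochberg) in any comparison. The SD among arrays was largest in WT DSS for 4 of the 5 genes and in TG DSS for Retnlb. Unless stated otherwise, each SE and unadjusted p comes from a fit that pools the spread of all 4 groups. For Reg3b the pooled SE of each 2-group comparison was 1.20. With only the compared groups fitted, it was 1.52 for DSS in WT, 0.40 for DSS in TG and 1.62 for TG minus WT under DSS. No member passed in those fits either. In bulk samples, fewer cells of a type and less RNA per cell cannot be told apart.

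**Figure D1:**
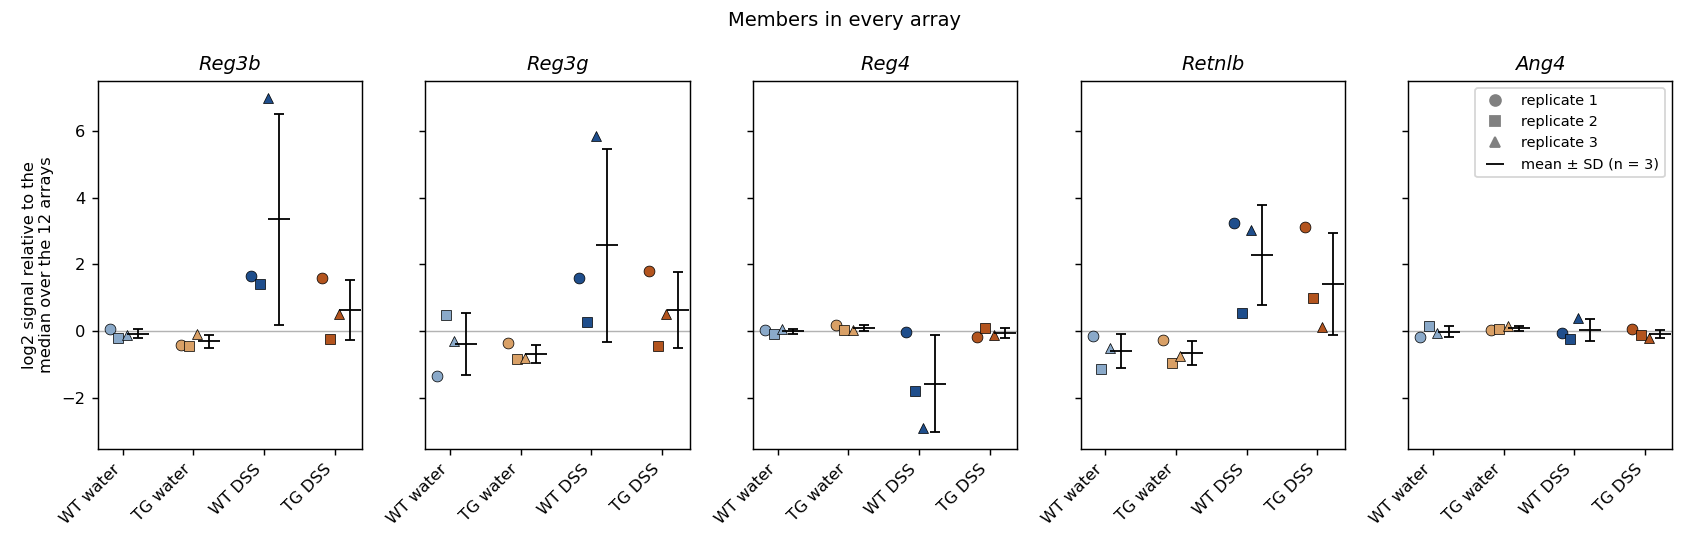
Each panel plots a gene's log2 signal relative to its median over the 12 arrays (vertical axis) for the 4 groups (horizontal axis), with a point for each array and a bar for the group mean ± SD (n = 3). WT DSS replicate 3 was the highest array for Reg3b (6.99) and Reg3g (5.83) and the lowest for Reg4 (-2.89), while Retnlb was high in WT DSS replicates 1 and 3 and in TG DSS replicate 1.

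Reg3b encodes a lectin directed mainly at Gram-negative bacteria. Its relative signal on WT water was 0.08, -0.19 and -0.11, and on TG water it was -0.40, -0.43 and -0.08. Under DSS the WT arrays read 1.64, 1.42 and 6.99, and the TG arrays read 1.58, -0.22 and 0.53. All 3 WT DSS arrays were above all WT water arrays, whereas TG DSS replicate 2 lay within the water range. The mean in WT DSS was 3.35 ± 3.16 (SD, n = 3) against -0.07 ± 0.14 on water, a log2 difference of 3.42 ± 1.20 (SE), or 10.7-fold. In WT DSS replicate 3, Reg3b had the highest relative signal of all 19935 genes, and its rank from the top was 146 and 1223 in replicates 1 and 2. Without replicate 3 the difference was 1.60. In TG it was 0.93 ± 1.20 (1.91-fold), and 0.46 without TG DSS replicate 1. With the TG groups fitted alone the SE was 0.40.

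Reg3g encodes the lectin that acts mainly on Gram-positive bacteria. It varied more on water than Reg3b, reading -1.35, 0.50 and -0.29 in WT and -0.36, -0.84 and -0.81 in TG. Under DSS it read 1.60, 0.29 and 5.83 in WT and 1.81, -0.44 and 0.52 in TG. WT DSS replicate 2 lay below WT water replicate 2, so these groups overlapped. The WT DSS mean of 2.57 ± 2.89 (SD, n = 3) exceeded the water mean of -0.38 ± 0.93 by 2.96 ± 1.18 (SE), or 7.76-fold, and without replicate 3 the difference was 1.33. Its rank from the top of all genes in that replicate was 3. In TG the difference was 1.30 ± 1.18 (2.46-fold), and 0.71 without TG DSS replicate 1. With the TG groups fitted alone the SE was 0.50. In WT DSS replicate 2 Reg3b read above all WT water arrays and Reg3g did not. Whether probes of one lectin also bind the other's transcript was not tested.

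Retnlb encodes RELMβ, a goblet cell protein that acts on bacteria and on worms. It read -0.14, -1.14 and -0.50 on WT water and -0.25, -0.94 and -0.75 on TG water. Under DSS it read 3.24, 0.56 and 3.03 in WT and 3.12, 0.99 and 0.14 in TG. In both genotypes every DSS array was above every water array. The WT means were 2.28 ± 1.49 (SD, n = 3) and -0.59 ± 0.50, a difference of 2.87 ± 0.81 (SE), or 7.31-fold. The TG means were 1.42 ± 1.53 (SD, n = 3) and -0.65 ± 0.36, a difference of 2.06 ± 0.81 (SE), or 4.18-fold. In TG DSS replicates 1 and 2 Retnlb had the 4th and 18th highest relative signal of all genes, and in replicate 3 its rank was 2980. Without TG DSS replicate 1 the TG difference was 1.21. With a weight estimated for each array, Retnlb passed in WT (3.30 ± 0.66, adjusted p = 0.0269 by limma). In that fit 754 of 19935 genes passed, against 34 without weights. The weights ran from 0.105 for WT DSS replicate 2, where Retnlb was lowest of that group, to 7.15 for WT water replicate 1.

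Reg4 went the other way. It was steady on water, at 0.03, -0.08 and 0.06 in WT and 0.18, 0.05 and 0.05 in TG. Under DSS the WT arrays read -0.03, -1.78 and -2.89, and the TG arrays read -0.16, 0.10 and -0.10. Replicates 2 and 3 of WT DSS were low and replicate 1 lay in the water range. The WT difference was -1.57 ± 0.53 (SE), which is 2.96-fold lower, and was -0.90 without replicate 3. Without WT DSS replicate 1, the array in the water range, it was -2.34 ± 0.26 and passed (adjusted p = 0.00169 by limma). In that fit 919 of 19935 genes passed, against 34 with all arrays. In TG the difference was -0.15 ± 0.53, and its SE was 0.10 with the TG groups fitted alone.

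Ang4 varied least. Its arrays read -0.17, 0.17 and -0.04 on WT water, 0.04, 0.08 and 0.17 on TG water, -0.06, -0.24 and 0.41 in WT DSS, and 0.06, -0.12 and -0.19 in TG DSS. The groups overlapped, and WT DSS replicate 3 was the highest of the 12 arrays. The DSS difference was 0.05 ± 0.16 (SE) in WT and -0.18 ± 0.16 in TG, with 95% intervals of -0.30 to 0.40 and -0.53 to 0.17.

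Counted over the members, 4 of 5 had an unadjusted p under 0.05 for DSS against water in WT, where 15.2% of all genes did and 0.171% (34 genes, 9 higher and 25 lower) passed after adjustment. The groups did not overlap for 2 members, Reg3b and Retnlb, and for 16.1% of all genes. In TG, Retnlb alone of the 5 had an unadjusted p under 0.05 and groups that did not overlap, where 2.38% and 13.4% of all genes did and 0% passed after adjustment. The median difference of the 5 was 2.87 in WT and 0.93 in TG, against -0.04 and -0.01 over all genes. These counts describe genes picked on the same arrays, and nothing is read from them.

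On water the members did not differ detectably between genotypes. TG minus WT was -0.23 for Reg3b, -0.29 for Reg3g, 0.09 for Reg4, -0.05 for Retnlb and 0.10 for Ang4, each with an adjusted p of 1 (limma). None had an unadjusted p under 0.05 or groups that did not overlap, where 0.306% and 4.98% of all genes did and 0% passed after adjustment. The pooled fit carries the wide WT DSS spread, so its 95% interval for Reg3b ran from -2.89 to 2.43, and that for Ang4 from -0.25 to 0.45. With the 6 water arrays fitted alone, the standard errors were 0.13 for Reg3b, 0.41 for Reg3g, 0.09 for Reg4, 0.27 for Retnlb and 0.11 for Ang4, and the adjusted p remained 1.

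Under DSS, the TG means of both Reg3 lectins were below those of WT and the TG mean of Reg4 was above. TG minus WT was -2.72 ± 1.20 (SE) for Reg3b, or 6.59-fold lower, and -1.94 ± 1.18 for Reg3g, or 3.84-fold lower. For Reg4 it was 1.51 ± 0.53, or 2.86-fold higher, for Retnlb -0.86 ± 0.81 and for Ang4 -0.12 ± 0.16. For every member the 2 groups of arrays overlapped, where 19% of all genes did not overlap. Reg3b and Reg4 had an unadjusted p under 0.05, as did 15.9% of all genes, and 0.0401% (8 genes) passed after adjustment. Without WT DSS replicate 3 the differences were -0.90 for Reg3b, -0.31 for Reg3g and 0.85 for Reg4. For Retnlb the difference was -1.72 without WT DSS replicate 2 and -0.22 without TG DSS replicate 3, and it ran between these values with the other arrays left out one at a time. Without WT DSS replicate 1 Reg4 passed (2.28, adjusted p = 0.00179 by limma), in a fit where 1166 genes passed, against 8 with all arrays.

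**Figure D2:**
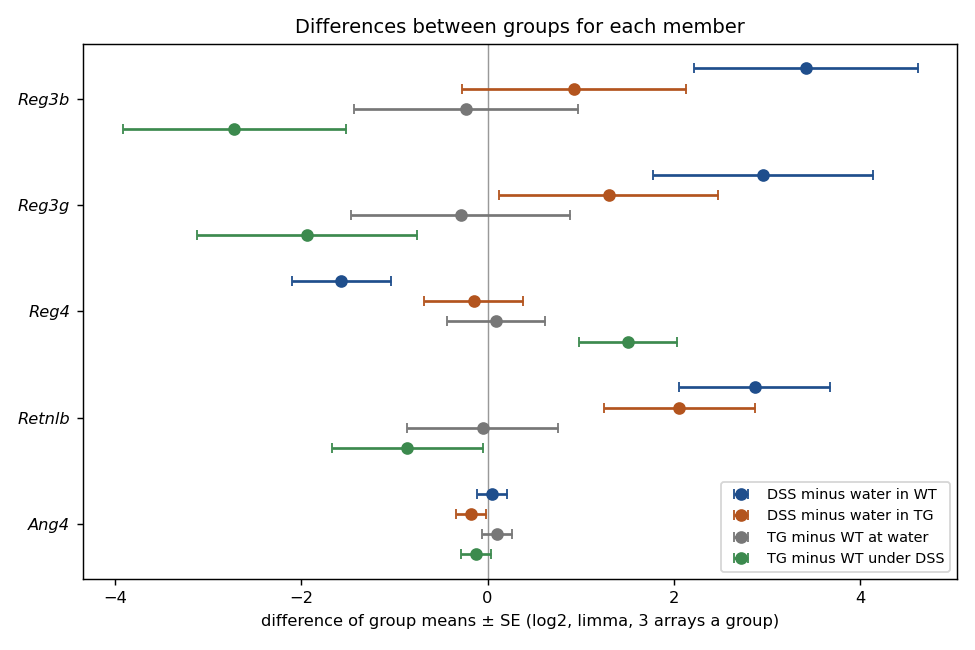
The horizontal axis gives the difference of group means in log2 units and the bars its SE from limma (3 arrays a group), for each member and 4 comparisons. DSS against water in WT was 3.42 for Reg3b and -1.57 for Reg4, and every comparison of Ang4 lay between -0.18 and 0.10.

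The DSS response was also compared between genotypes directly, as the interaction, the TG change minus the WT change. It was -2.49 ± 1.69 (SE) for Reg3b, -1.66 ± 1.67 for Reg3g, 1.42 ± 0.75 for Reg4, -0.80 ± 1.15 for Retnlb and -0.23 ± 0.22 for Ang4. No member had an unadjusted p under 0.05, where 5.85% of all genes did and 0% passed after adjustment. The 95% interval for Retnlb, -3.36 to 1.75, held differences in both directions. Without WT DSS replicate 1 the Reg4 interaction passed (2.19, adjusted p = 0.0207 by limma), in a fit where 239 genes passed, against 0 with all arrays. Without WT DSS replicate 3 the interactions of Reg3b and Reg3g were -0.67 and -0.03. With each array left out in turn, the Retnlb interaction ran from -1.66 to -0.17.

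Relative to its own water mean, Reg3b stood 1.71, 1.5 and 7.07 higher in the WT DSS arrays and 1.88, 0.09 and 0.84 higher in the TG DSS arrays. For Reg3g these changes were 1.98, 0.67 and 6.21 in WT and 2.48, 0.23 and 1.19 in TG. For Retnlb they were 3.83, 1.15 and 3.62 in WT and 3.77, 1.64 and 0.79 in TG. TG DSS replicate 1 thus lay within the range of the WT DSS arrays for each of these genes, and TG DSS replicates 2 and 3 stood below it. Of these, Retnlb in TG DSS replicate 2 (1.64) and Reg3g in TG DSS replicate 3 (1.19) lay above the lowest WT DSS array, and the other changes lay below it. The labels do not say that a replicate number pairs samples, and it is used here as a name.

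The relatives of the members varied to different degrees. In the RefSeq gene order of chromosome 6, Reg3d, Reg3a, Reg2 and Reg1 lie between Reg3b and Reg3g. These 4 genes stayed between -0.30 and 0.42 on the 12 arrays, apart from Reg3a at 0.74 in WT DSS replicate 3, the array in which the flanking Reg3b and Reg3g were highest. Next to Retnlb on chromosome 16, Retnla read 0.27, -0.65 and -0.70 in WT DSS and -0.10, 0.72 and -0.03 in TG DSS. After it lies Retnlg, a resistin-like gene of neutrophils, which read 3.20, 5.16 and 1.22 in WT DSS and 1.17, -0.01 and -0.04 in TG DSS. Retnlg was thus highest in WT DSS replicate 2, where Retnlb was lowest of that group. Ang2, Ang5 and Ang6, the ribonuclease genes closest in name to Ang4, stayed between -0.40 and 0.40. The other relatives were Retn, which ranged from -0.31 to 0.96, and the ribonuclease genes Rnase1 (-0.74 to 1.42), Rnase2a (-0.11 to 0.80) and Rnase6 (-0.46 to 0.62), whose ranges covered water arrays too. Of the 13 relatives measured none passed, and their median difference was 0.01 in WT and -0.01 in TG.

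**Figure D3:**
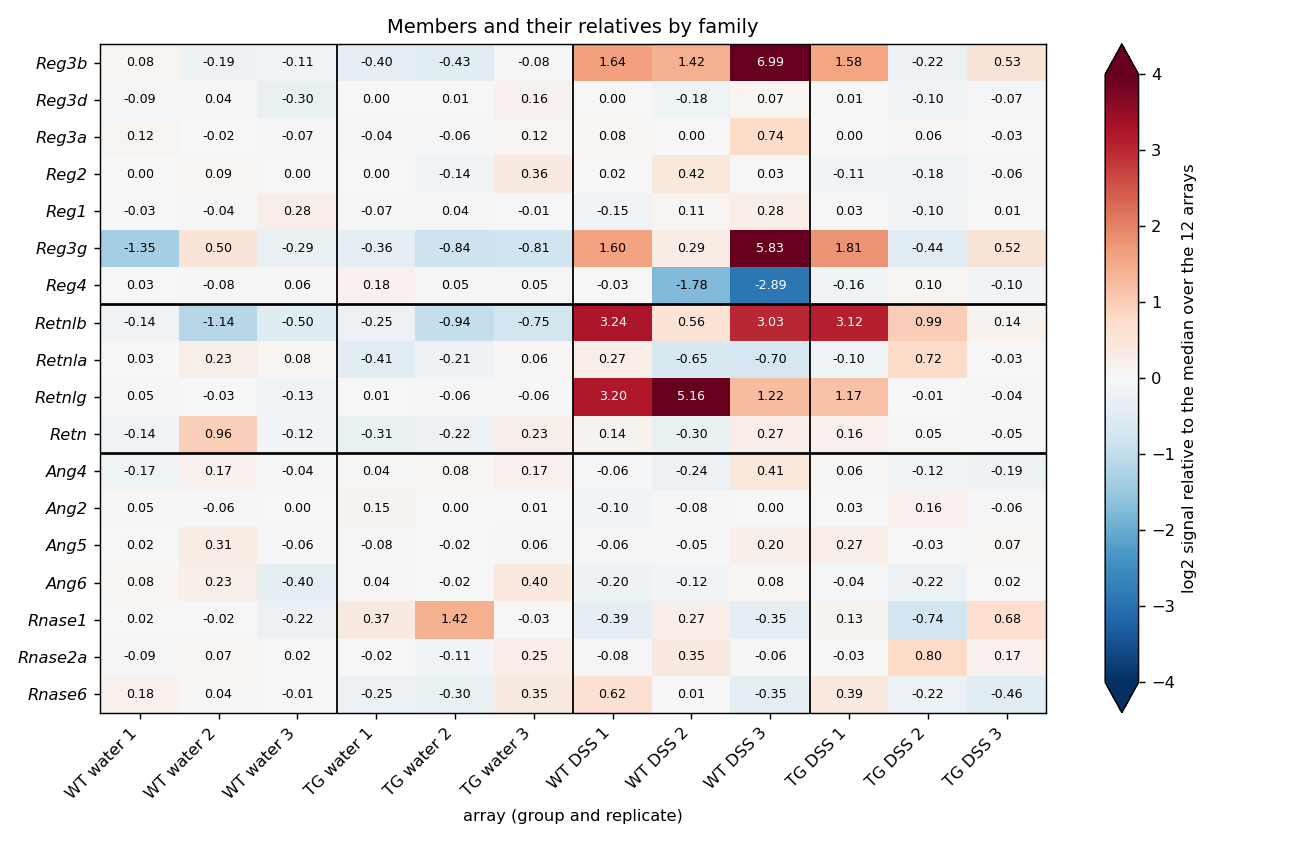
Colours and printed numbers give the log2 signal relative to each gene's median over the 12 arrays, for the members and their relatives (rows, grouped as Reg, resistin-like and ribonuclease genes) in every array (columns); the colour scale ends at 4 in both directions. Reg3b and Reg3g stand apart from the 4 Reg genes between them, and Retnlg peaks in WT DSS replicate 2 (5.16) while Retnlb peaks in replicate 1 (3.24).

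Levels of cell type markers differed widely between the DSS arrays. In WT DSS replicates 1, 2 and 3 the median of 13 pan-epithelial markers was -0.02, -2.08 and 0.05, that of 17 goblet and deep crypt secretory markers -0.11, -1.84 and 0.40, and that of 15 absorptive colonocyte markers -0.10, -2.04 and 0.17. The median of 14 neutrophil markers was 2.16, 3.90 and 0.29, that of 14 macrophage markers 1.24, 2.33 and -0.06, and that of 12 endothelial markers 0.70, 2.99 and -0.29. WT DSS replicate 2 had the lowest epithelial and highest neutrophil medians. It also had the smallest increases of Reg3b, Reg3g and Retnlb in its group, although for Reg3b its 1.5 was close to the 1.71 of replicate 1. Whether these are related was not tested.

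WT DSS replicate 3, in which the Reg3 lectins were highest, had a pan-epithelial median near those of water and a neutrophil median of 0.29. Its goblet and deep crypt secretory median of 0.40 lay above the -0.04 to 0.14 of WT water, and its enteroendocrine median was 0.53. The T and NK cell median was 0.65 there, the highest of the 12 arrays, against 0.20 and 0.52 in WT DSS replicates 1 and 2. The crypt base and proliferating markers (11 genes) of replicate 3 were at -1.32, against -0.10 and -0.74 in replicates 1 and 2. Its 5 Paneth and 8 tuft markers were at 0.99 and 0.88. Itln1, counted among the Paneth markers, read 1.03 there. The 10 pancreatic acinar markers, measured because Reg genes are also pancreatic, were at -0.14, 0.19 and -0.06. In TG DSS replicate 1 the neutrophil and macrophage medians were 0.61 and 0.98, whereas in replicates 2 and 3 both lay between -0.30 and -0.06. The part of these markers in the members' values was not tested.

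Genes whose pattern over the 12 arrays was most like a member's, by Pearson's r and as a description, were named 4 to a member. For Reg3g these were Isx (r = 0.958), Ceacam12 (0.957), Reg3b (0.952) and Sptssb (0.943). Without WT DSS replicate 3 and TG DSS replicate 1 the r values were 0.795, 0.759, 0.713 and 0.820. Isx encodes an intestinal homeobox factor that controls vitamin A uptake in the small intestine. It read 2.11, 0.54 and 4.74 in WT DSS and 1.75, -0.07 and 1.27 in TG DSS. For Reg3b they were Sptssb (0.98), Stard3nl (0.964), Vnn1 (0.962) and Gzma (0.962). Without the 2 arrays farthest from the median, WT DSS replicates 1 and 3, the r of Reg3b with Sptssb was 0.874 and that with Stard3nl 0.689.

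For Reg4 they were Vsig1 (r = 0.99), Hoxb13 (0.989), Sval1 (0.988) and Atp12a (0.983). Hoxb13, a homeobox gene of the distal colon and rectum, read -0.50, -2.65 and -5.36 in WT DSS and -0.45, 0.06 and -0.05 in TG DSS, against -0.12 to 0.28 on water. Without WT DSS replicates 2 and 3 the r of Reg4 was 0.693 with Sval1, 0.646 with Hoxb13, 0.477 with Vsig1 and -0.0204 with Atp12a. These likenesses thus rested largely on those arrays, that with Atp12a most. The median of 16 Hox genes of paralogue groups 9 to 13 was -0.20, -0.33 and -0.21 in the WT DSS arrays, that of 21 Hox genes of groups 1 to 8 was 0.00, -0.01 and 0.11, and that of 19 small intestinal enterocyte genes was -0.01, -0.18 and -0.09. The part of the sampled stretch of colon in these values was not tested, and the labels give none.

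For Retnlb they were Ddah1 (r = 0.931), Nampt (0.925), Plet1 (0.906) and Ifit2 (0.906). Without WT DSS replicate 1 and TG DSS replicate 1 these were 0.878, 0.936, 0.853 and 0.896. Across the members, r was 0.952 between Reg3b and Reg3g, 0.707 between Reg3b and Retnlb and -0.885 between Reg3b and Reg4. Without WT DSS replicates 1 and 3 these were 0.718, 0.754 and -0.685. Between Reg3b and Ang4 r was 0.534, -0.376 without those arrays and 0.836 for deviations from the group means. The genes most like Ang4 were Fads2b (0.908), Muc16 (0.906), Rgs11 (0.903) and Rccd1 (0.901). Without WT DSS replicates 2 and 3 the r values were 0.784, 0.802, 0.751 and 0.841. The arrays and their groups are shared by all these genes, so the values carry no test.

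**Figure D4:**
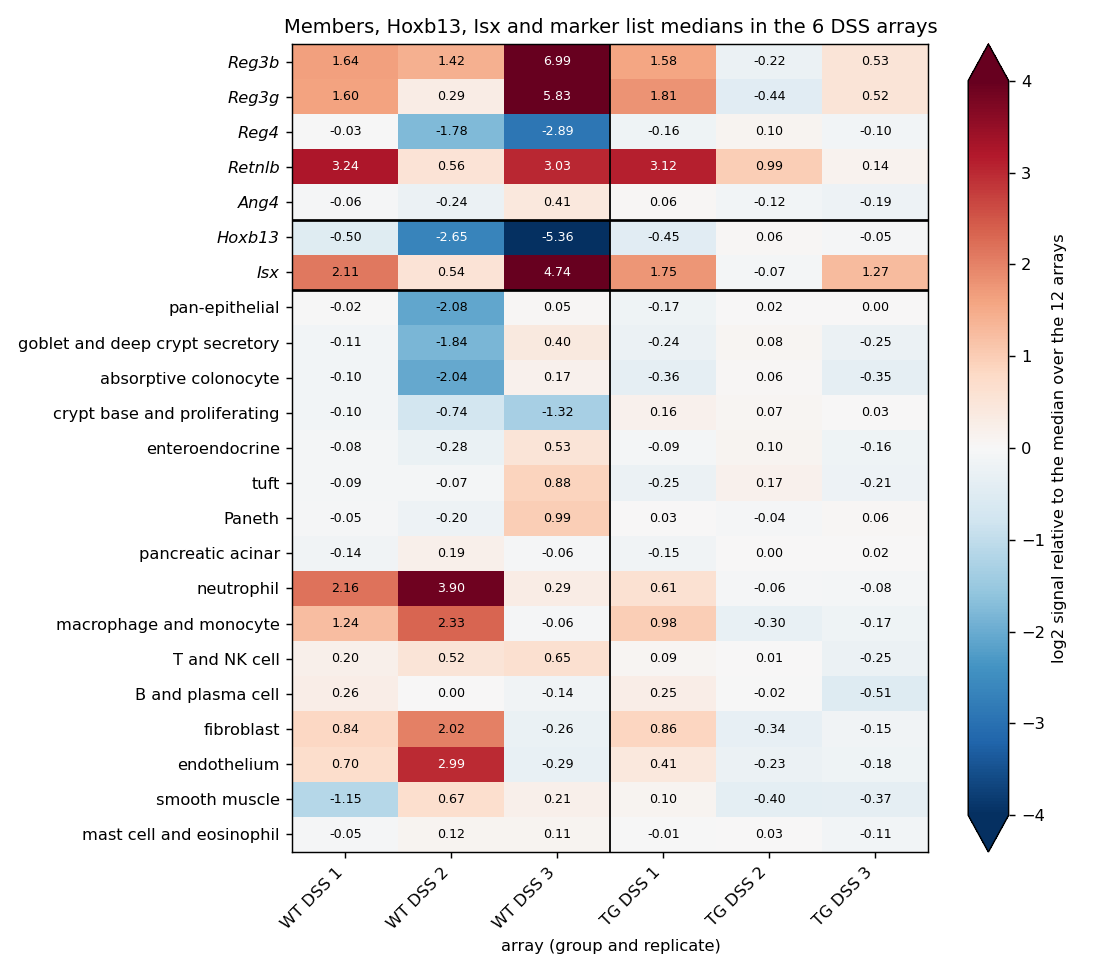
Colours and printed numbers give the log2 signal relative to the median over the 12 arrays in the 6 DSS arrays (columns) for the 5 members, for Hoxb13 and Isx, and as list medians for 16 sets of cell type markers (rows); the colour scale ends at 4 in both directions. WT DSS replicate 2 combines a pan-epithelial median of -2.08 with a neutrophil median of 3.90, and WT DSS replicate 3 combines Reg3b at 6.99 with Hoxb13 at -5.36.

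Genes of the signals that act on the members were examined next. Of 25 measured genes of IL-22, IL-17, IL-6 and STAT3 signalling none passed, and their median difference under DSS was 0.23 in WT and -0.03 in TG. Il6, a cytokine that activates STAT3, read 1.51, 4.85 and 0.33 in WT DSS and 1.20, -0.02 and 0.02 in TG DSS. Socs3, a feedback inhibitor induced by STAT3, read 1.42, 2.74 and 0.52 in WT DSS and 1.14, 0.05 and 0.62 in TG DSS. In WT DSS both were highest in replicate 2 and lowest in replicate 3, the opposite order to the Reg3 lectins. In TG DSS both were highest in replicate 1 and lowest in replicate 2, the same order as the Reg3 lectins. The part of these signals in the members' values was not tested.

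Il22ra1, the receptor subunit through which epithelium senses IL-22, read -0.10, -2.05 and -0.28 in WT DSS. Il22ra2, the soluble decoy that binds IL-22, read 0.77, 0.69 and 0.68 on WT water and -0.56, -0.80 and -0.64 in WT DSS, groups that did not overlap, a difference of -1.38 ± 0.31 (SE). In TG DSS it read -0.46, 0.38 and -0.92. Il17a differed by 0.09 in WT and Stat3 by 0.43 ± 0.16.

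Of 19 genes of IL-4, IL-13, alarmin and STAT6 signalling none passed, and the median difference was 0.10 in WT and -0.03 in TG. Il4ra, the receptor chain shared by IL-4 and IL-13, read 1.29, 2.23 and 1.15 in WT DSS and 0.87, -0.04 and -0.06 in TG DSS, a difference of 1.64 ± 0.31 (SE) in WT and 0.44 ± 0.31 in TG. The cytokines themselves differed little in WT, Il4 by -0.16 and Il13 by -0.14. Stat6 differed by 0.27 ± 0.11, the alarmin gene Il33 by 0.68 and the decoy receptor gene Il13ra2 by 0.27. In TG DSS both Il4ra and Retnlb were highest in replicate 1, at 0.87 and 3.12. In replicate 2 Il4ra read -0.04 against a TG water mean of -0.19, and Retnlb read 0.99 against -0.65. The part of these signals in the values of Retnlb was not tested.

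Of 18 microbial sensing genes none passed, with a median difference of 0.38 in WT and 0.18 in TG. Tlr4, the lipopolysaccharide receptor, differed by 0.64 ± 0.21 (SE) in WT, its adaptor Myd88 by 0.71 ± 0.24 and the muropeptide sensor Nod2 by 0.46 ± 0.11. In TG these differences were 0.40, 0.27 and -0.11.

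Among 27 other epithelial defence genes, 1 passed as higher and 1 as lower in WT under DSS, and none passed in TG. They are named after their values were seen. Saa3, an acute-phase protein, read 5.55, 6.89 and 3.83 in WT DSS, a difference of 5.67 ± 0.81 (SE; adjusted p = 0.0343 by limma). Mptx1, a mucosal pentraxin, read -3.56, -6.17 and -4.89, a difference of -5.12 ± 0.69 (adjusted p = 0.0285 by limma). In TG DSS, replicate 1 read 2.77 for Saa3 and -2.05 for Mptx1, and replicates 2 and 3 lay between -0.10 and 0.48 for both. Both calls depend on which arrays are fitted, since the count of passing genes fell to 0 without single water arrays.

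Lcn2, which withholds iron from bacteria, read 4.37, 6.36 and 2.48 in WT DSS and 2.58, -0.01 and -0.03 in TG DSS. Nos2, the inducible nitric oxide synthase, read 3.65, 1.69 and 2.35 in WT DSS and 2.43, -0.06 and -0.26 in TG DSS. For both genes the 3 WT arrays and TG DSS replicate 1 were high and the other two TG arrays lay near 0. Duox2, an epithelial oxidase, read 1.11, -1.47 and 1.36 in WT DSS, which like Retnlb was lowest in replicate 2. The lumenal lectin genes Zg16 and Itln1 differed by -0.19 and 0.28, and Lypd8, whose product holds back flagellated bacteria, by -0.16.

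Among 10 reported receptors and regulators of Reg proteins none passed, with a median difference of -0.12 in WT and 0.01 in TG. Extl3, reported as a Reg receptor, differed by 0.26 in WT, Egfr, a reported target of REG4 signalling, by 0.59 ± 0.16 (SE), and Klf4, a goblet cell transcription factor, by -0.87 ± 0.33.

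**Figure D5:**
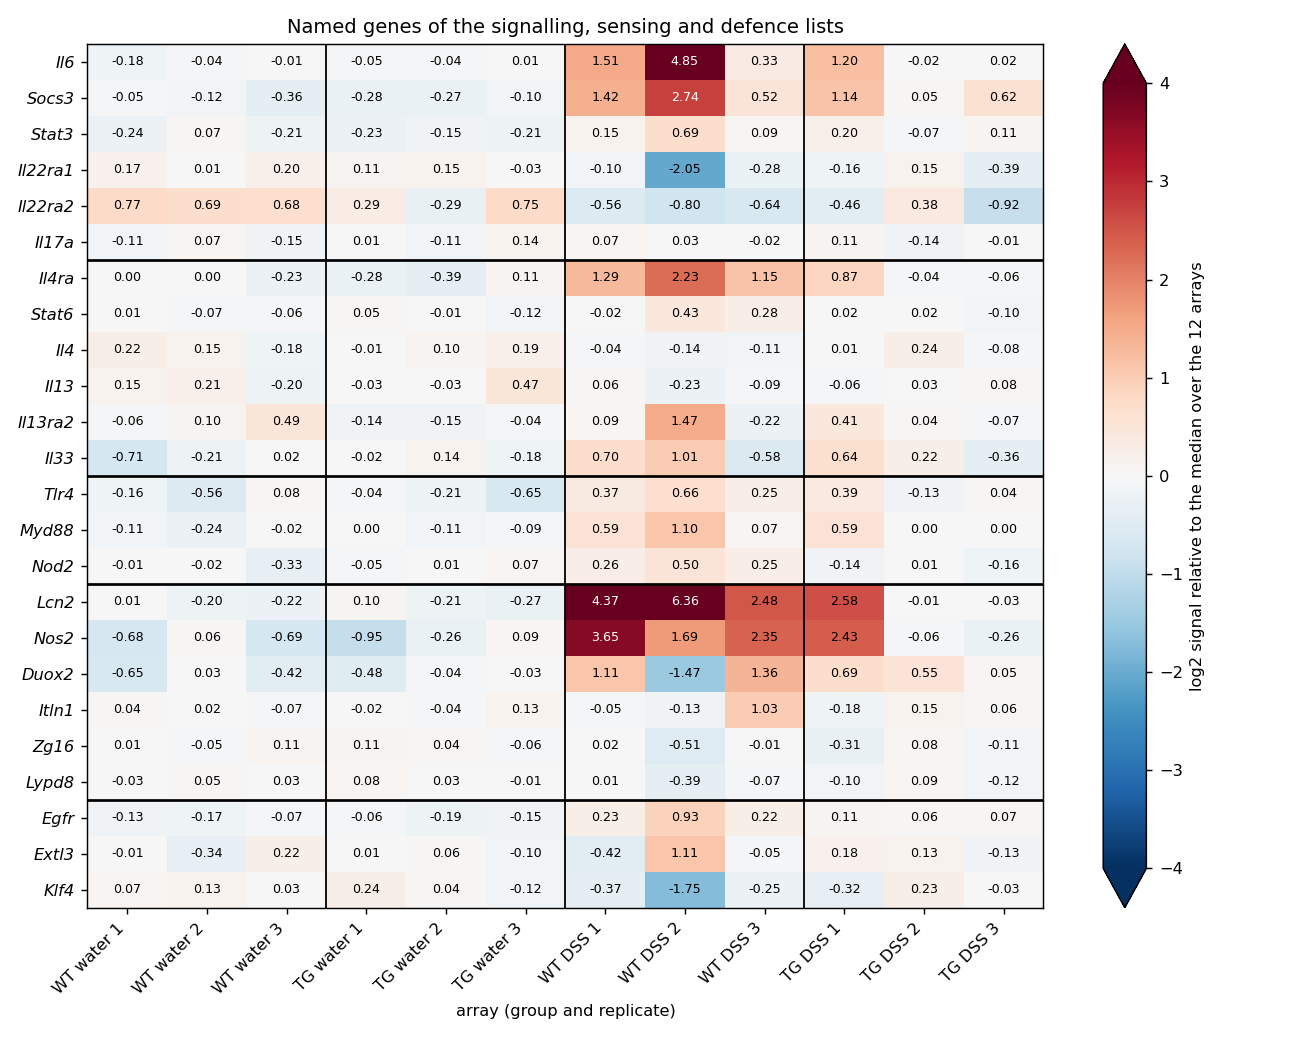
Colours and printed numbers give the log2 signal relative to each gene's median over the 12 arrays, for the named list genes (rows, in blocks for STAT3, STAT6, microbial sensing, other defence, and receptors and regulators) in every array (columns); the colour scale ends at 4 in both directions. Il6, Socs3 and Lcn2 were highest in WT DSS replicate 2, and TG DSS replicates 2 and 3 lay near 0 for Lcn2 and Nos2.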

How the data were processed

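RNA from 12 colon epithelial samples was hybridised to Affymetrix mouse arrays. Per the submitters' processing notes, the authors summarised signals by RMA in Affymetrix Expression Console, with no version stated. RMA gives log2 values, and the deposited table was read on that scale. Every probe set had a median of 0 to within 5e-07 over the arrays, so the table holds relative signal, with no absolute level and no means to filter dim probe sets. The number of arrays limits the precision.

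Of 28815 probe sets, the platform annotation gave 21780 exactly 1 symbol, 1605 several and 5430 none, and probe sets of a gene were averaged. The linear model of limma 3.58.1 (R 4.3.3; eBayes without trend, 8 residual degrees of freedom) had 1 mean for each group over the 12 arrays, and its tests were two-sided, with Benjamini-Hochberg adjustment over 19935 genes and a threshold of 0.05. An exact permutation test of 3 against 3 arrays cannot go below 0.1, so none was used. The fit was tested on simulated data with equal spread in all groups, which does not cover the unequal spread of these groups.

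The members, gene lists and tests were chosen with earlier results of these data known, and the Hox and small intestinal lists after further values were seen. Named genes are all members, all measured relatives, list genes fixed by role, and the 4 genes most like each member. Il22, one of these, had no probe set with 1 symbol. Alternatives were the probe set rule, centring, weights, thresholds, a replicate block, single groups and leaving out each array. Promoters came from RefSeq (GRCm38.p6) and were aligned with Biopython 1.88.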

Additional observations from a re-analysis of the deposited data

How the results depend on the processing

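The members' differences kept their direction and their side of the threshold in 534 of 545 recomputed values. Many of these could not change direction, because thresholds, group weights and arrays outside a comparison leave its difference as it is. Stricter thresholds could not make a member pass either, so the count is no measure of stability. The 4 that newly passed were Retnlb in WT with a weight per array and Reg4 in 3 comparisons without WT DSS replicate 1, so the count of members passing was 1 with a weight per array and ran from 0 to 1 with each array left out. Directions reversed for small differences: Reg3g on water was 0.36 with a weight per array and -0.77 to 0.15 with each array left out, Retnlb on water ran from -0.33 to 0.17, Ang4 under DSS in WT from -0.14 to 0.18, and Ang4 in TG minus WT under DSS from -0.26 to 0.07. The cause was not tested.

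The number of genes passing, 34 for DSS in WT and 8 for TG minus WT under DSS, was 0 and 0 with the groups fitted alone, with a weight per group, at an adjusted p of 0.01 and against a fold of 1.5. It was 105 for DSS in WT with each named probe set on its own, and for TG minus WT under DSS it was 5 with all probe sets and 4 with each array centred. With a weight per array it was 754 for DSS in WT, 1971 for TG minus WT on water, 4 for DSS in TG, 273 for TG minus WT under DSS and 12 for the interaction. With each array left out it ran from 0 to 919 for DSS in WT, 0 to 1166 for TG minus WT under DSS and 0 to 239 for the interaction. Each maximum came without WT DSS replicate 1, the fit in which Reg4 passed. With the replicate block the number passing was 0 and 0. Deviations from the group means had correlations of -0.484 to 0.377 between samples of the same number. Samples of different numbers were not compared, so these values cannot decide whether the numbers pair the samples. The block changed no member's call. Median differences were recomputed for the lists of relatives, signalling, sensing, defence, and receptors and regulators. Of these values, 563 moved by less than the spread between replicates and 31 by more. Many could not move, because thresholds and arrays outside a comparison leave its difference as it is. The cell type marker, Hox and small intestinal lists were not recomputed. The filter on dim probe sets was not run, because the values are centred.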
